A study of Arabidopsis thaliana with 12 samples.

Results

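The auxin response and auxin conjugation genes described here are the 8 genes whose single-gene probe set carries the symbol IAGLU or the letters IAA followed by a number. They were IAGLU (AT4G15550), IAA18 (AT1G51950), IAA20 (AT2G46990), IAA29 (AT4G32280), IAA30 (AT3G62100), IAA31 (AT3G17600), IAA33 (AT5G57420) and IAA34 (AT1G15050). They are 8 of 13350 genes that have a probe set naming 1 gene, and each of them has 1 such probe set. Symbols starting with SAUR were part of the rule too, and 0 probe sets carried one. The table of reference genes holds 24 symbols of the IAA kind, so the 7 IAA genes are a part of that family, and the other members were not analysed here.

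Total RNA of rosette leaves from 6-week-old soil-grown Arabidopsis thaliana was hybridised to Affymetrix arrays, with 3 arrays for each of 4 genotypes. OE1 and OE2 are a pair of lines overexpressing TaFLS, a flavonol synthase gene, fls1-3 is a mutant named for the plant's own flavonol synthase gene FLS1, and Col-0 is the wild type. OE1 and OE2 are 1 line each, and the labels do not name the promoter that drives the added gene. The level of FLS1 itself was not analysed here, so the mutant rests on its label. The titles call the replicates biological, without the number of plants behind each array, and the p-values therefore reflect only how these arrays scatter, which may be partly technical. The labels describe lowered flavonols in OE1 and raised ones in OE2 as in fls1-3. These descriptions conflict between the overexpression lines, and the genotypes are therefore named only as labelled.

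Flavonols are plant phenolics known to act on the transport of auxin, the hormone indole-3-acetic acid, which is why auxin genes are of interest in plants with altered flavonol synthase. Auxin binds a receptor complex that marks Aux/IAA repressor proteins for degradation through a short sequence, the degron, and so frees the auxin response factors that switch on target genes. The free hormone is held down by enzymes that join it to amino acids or to sugars. IAGLU encodes a glucosyltransferase named for joining glucose to indole-3-acetate. IAA18 and IAA29 encode Aux/IAA repressors, and IAA29 is known as a gene of the shade and warmth response. IAA20, IAA30, IAA33 and IAA34 encode members of the group without the usual degron, and IAA31 one with an altered degron.

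Values are deposited log2 signals, scaled by the authors to a common trimmed mean on each array, and a difference of 1 is a factor of 2 in signal. Array medians lay between 7.10 and 7.55, and the signal of a probe set shows changes of its own gene, not its amount against another gene. Markers of leaf tissue were in place: RCA, LHCB4.1, PRK and SBPASE stood at or above the 99.4 percentile of all probe sets. The stomatal lineage genes FMA, SPCH and MUTE stood between the 12.2 and the 40.4 percentile. STOMAGEN, read from the same list but not a marker of those cells themselves, stood at the 81.7 percentile. STOMAGEN did not pass in OE1 minus Col-0, at 1.20 (limma adjusted p = 0.463), though all OE1 arrays lay above Col-0, nor in fls1-3 minus OE1, at -1.50 (limma adjusted p = 0.203), where all fls1-3 arrays lay below OE1. The root markers EXPA7 and EXPA18, the flower gene UFO and the meristem gene CLV3 stood between the 8.1 and the 29.1 percentile, and none of the marker genes passed the test in any comparison. The OE1 arrays stood apart in a measure of RNA quality: the GAPDH control's 3' signal exceeded its 5' signal by up to 2.44 log2 units in OE1 (replicate values all above 2), against 0.86 to 1.65 on the other arrays. For the ubiquitin control this excess was 1.07 to 1.40 in OE1, 0.57 to 0.79 in OE2, 0.20 to 0.29 in fls1-3 and 0.44 to 0.71 in Col-0. On that control OE1 lay above and fls1-3 below all other arrays. The part of these controls in the values below was not tested. In bulk leaf RNA, fewer cells that express a gene and less RNA per cell cannot be told apart.

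Of the 8 genes, 1 changed against Col-0 in a test across all probe sets: IAGLU fell in fls1-3. The 7 IAA genes passed in no line, and none of the 8 passed in OE1 or OE2. Limma's test with Benjamini-Hochberg adjustment over 22746 probe sets called 0.0% of all probe sets in OE1, 0.989% for OE2 and 1.2% for fls1-3, each against Col-0. At an unadjusted limma p under 0.05, the count was 0 of the 8 genes in OE1, where 10.7% of all probe sets passed, 2 in OE2 (IAGLU and IAA29), where 11.3% did, and 2 in fls1-3 (IAGLU and IAA18), where 10.2% did.

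Groups whose arrays do not overlap give a second description. Against Col-0 there were 0 such genes of the 8 in OE1, where 14.3% of all probe sets did not overlap, 4 in OE2 (IAA18 and IAA29 higher, IAGLU and IAA34 lower), where 18.5% did not, and 3 in fls1-3 (IAA18 higher, IAGLU and IAA34 lower), where 12.6% did not. The median difference from Col-0 over the 8 genes was -0.25 in OE1, -0.66 in OE2 and -0.55 in fls1-3, and over all probe sets it was 0.11, 0.083 and -0.004. These medians mix genes of strong and of weak signal, which are described separately below.

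Between the lines, 0 of the 8 genes passed limma's adjusted threshold in any pair. The shares of all probe sets called were 0.0264% for OE2 minus OE1, 0.554% for fls1-3 minus OE1 and 0.022% for fls1-3 minus OE2. At an unadjusted limma p under 0.05 the counts were 1 of the 8 (IAA29) against 8.43% for OE2 minus OE1, 2 (IAGLU and IAA18) against 15.7% for fls1-3 minus OE1, and 1 (IAA29) against 5.44% for fls1-3 minus OE2. Non-overlapping arrays were found for 1 gene (IAA29) in OE2 minus OE1, where 18.4% of all probe sets had them, and for 0 in fls1-3 minus OE1 (20.7%) and fls1-3 minus OE2 (12.6%). In limma's test for any difference among the 4 genotypes, 0 of the 8 passed, against 1.03% of all probe sets, and 2 (IAGLU and IAA18) had an unadjusted p under 0.05, against 13.2%.

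**Figure D1:**
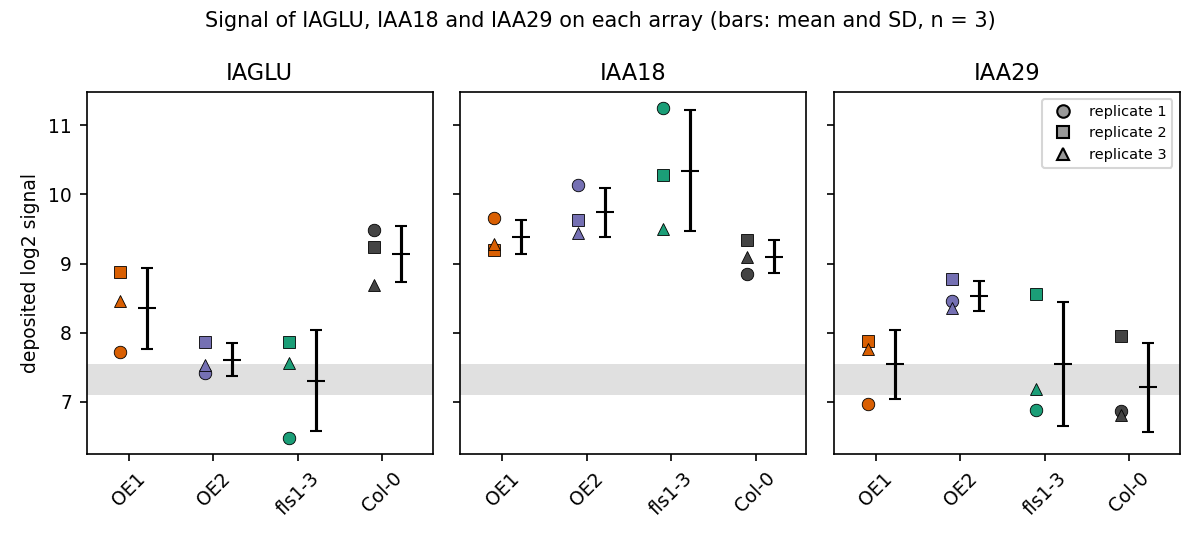
Deposited log2 signal (vertical axis) of IAGLU, IAA18 and IAA29 on each array, by genotype (horizontal axis), with marker shapes for replicate numbers, and the mean and SD beside the points (n = 3). The grey band spans the array medians, 7.10 to 7.55. IAGLU lies lower on all 3 OE2 and all 3 fls1-3 arrays than on every Col-0 array, and IAA29 higher on all 3 OE2 arrays.

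IAGLU, the conjugation gene, had the clearest genotype pattern. Its log2 signal was 6.48, 7.87 and 7.57 on the fls1-3 arrays, against 9.48, 9.24 and 8.69 on the Col-0 arrays. All fls1-3 arrays lay below all Col-0 arrays, with fls1-3 replicate 1 the lowest of the 12. IAGLU averaged 7.31 ± 0.73 in fls1-3 and 9.13 ± 0.41 in Col-0 (SD, n = 3 each), so it fell by 1.83 ± 0.37 on the log2 scale (SE), a 3.55-fold lower signal (limma adjusted p = 0.0366, 95% interval -2.65 to -1.01). The ubiquitin control's 3' excess was also lower on every fls1-3 array than on every Col-0 array, and its part in this fall was not tested. The other controls overlapped between fls1-3 and Col-0. The GAPDH excess was 0.86 to 1.64 in fls1-3 and 1.19 to 1.40 in Col-0. Another GAPDH pair had 0.21 to 0.43 and 0.37 to 0.56, and actin had 2.103 to 2.645 and 2.402 to 2.742. In rank terms, the IAGLU probe set lay between the 39.1 and the 57.1 percentile of its array in fls1-3, and between the 68.2 and the 79.2 percentile in Col-0.

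The direction of this fall held without any 1 array, and the call did not. Leaving out any 1 of the 12 arrays gave differences between -2.11 and -1.42, and the call was lost without Col-0 replicate 1 or 2, OE1 replicate 3, any of OE2 replicates 1 to 3, or fls1-3 replicate 1 or 3, with adjusted p between 0.0599 and 0.149. Without fls1-3 replicate 1, the difference was -1.42 (limma adjusted p = 0.103). The call was also lost under quantile normalization, with arrays centred on their medians, without the intensity trend and when only fls1-3 and Col-0 were fitted, where the difference stayed between -1.87 and -1.83. Without the OE1 arrays, which stood apart in RNA quality and enter through the pooled spread, it was -1.83 (limma adjusted p = 0.0534).

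In OE2, IAGLU had signals of 7.42, 7.87 and 7.54, against the same Col-0 arrays. All OE2 arrays lay below all Col-0 arrays, and within the narrowest spread of the 4 genotypes. The mean was 7.61 ± 0.23 in OE2 (SD, n = 3), a difference of -1.52 ± 0.37 that missed the threshold (limma adjusted p = 0.0929, 95% interval -2.34 to -0.71). The mean level of the 4 mesophyll markers was 14.04 to 14.15 on the OE2 arrays, against 14.30 to 14.61 on the Col-0 arrays. PRK was at -0.44 (limma adjusted p = 0.593) and SBPASE at -0.52 (limma adjusted p = 0.482) in OE2 minus Col-0. For both genes all OE2 arrays lay below all Col-0 arrays, where 18.5% of all probe sets did not overlap, while RCA and LHCB4.1 overlapped. Differences of like size were not particular to OE2, but the lack of overlap with Col-0 was seen only there. In fls1-3 the mean level was 13.63 to 14.34, with PRK at -0.45 and SBPASE at -0.48, and in OE1 PRK was at -0.47, all overlapping Col-0. The array of fls1-3 replicate 1, lowest for IAGLU, was also lowest for each of the 4 markers. The part of the marker level in the IAGLU values of any line was not tested. The IAGLU difference of OE2 minus Col-0 was called with array quality weights (adjusted p = 0.0238 by limma) and without fls1-3 replicate 1 (limma adjusted p = 0.0364). That array enters this comparison through the pooled spread.

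In OE1, IAGLU had signals of 7.72, 8.88 and 8.46, and OE1 replicate 2 lay above the lowest Col-0 array. The difference was -0.78 ± 0.37 from a mean of 8.35 ± 0.59 (SD, n = 3; limma adjusted p = 0.473, 95% interval -1.60 to 0.034). Ordered by mean, the genotypes ran fls1-3, OE2, OE1 and Col-0 from low to high, and arrays of neighbouring genotypes overlapped at every step. The lines were also set against each other. The difference of fls1-3 minus OE1 was -1.05 ± 0.37 (limma adjusted p = 0.210), that of OE2 minus OE1 -0.74 ± 0.37 (adjusted p = 0.640) and that of fls1-3 minus OE2 -0.30 ± 0.37 (adjusted p = 0.907, 95% interval -1.12 to 0.51). So the fall called in fls1-3 was not shown to differ from the values in OE1 and OE2 in this fit. With the array median as a covariate, an alternative added after the data were seen, IAGLU in fls1-3 minus OE1 was -1.43 and passed (limma adjusted p = 0.0137). All comparisons with Col-0 share the same 3 Col-0 arrays.

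Array medians moved with some of these values. The fls1-3 array with the lowest IAGLU signal, replicate 1, had an array median of 7.51, and the Col-0 array with the highest IAGLU signal, replicate 1, had the lowest median of the 12, 7.10. With that covariate, IAGLU differed from Col-0 by -1.71 in fls1-3 (limma adjusted p = 0.0016), by -1.06 in OE2 (limma adjusted p = 0.0577) and by -0.28 in OE1 (limma adjusted p = 0.801).

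**Figure D2:**
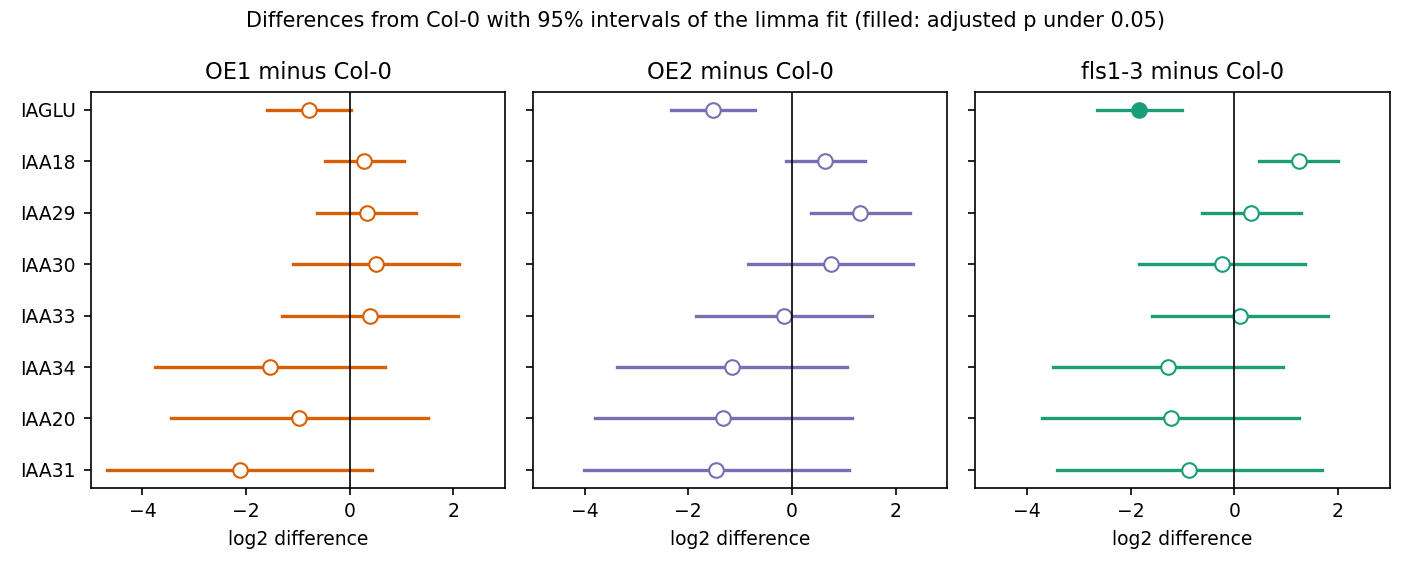
Log2 difference from Col-0 (horizontal axis) of each of the 8 genes (vertical axis) in OE1, OE2 and fls1-3, with 95% intervals of the limma fit over 12 arrays. The filled point, IAGLU in fls1-3 at -1.83, is the value that passed an adjusted p of 0.05, and the intervals of the 5 dim genes below IAA29 span 3.19 to 5.12 log2 units in width.

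IAA18, the repressor gene with a role known from embryo and lateral root development, was highest in fls1-3. Its log2 signal was 11.24, 10.28 and 9.50 on the fls1-3 arrays, against 8.86, 9.34 and 9.10 on the Col-0 arrays. All fls1-3 arrays lay above all Col-0 arrays, and fls1-3 replicate 1 stood well above replicates 2 and 3. The mean was 10.34 ± 0.87 in fls1-3 and 9.10 ± 0.24 in Col-0 (SD, n = 3 each), a difference of 1.24 ± 0.35 that missed the threshold (limma adjusted p = 0.141, 95% interval 0.48 to 2.00). Without fls1-3 replicate 1 the difference was 0.79 (limma adjusted p = 0.317), and without fls1-3 replicate 3 it was 1.66 and passed (limma adjusted p = 0.0244). It also passed with array quality weights, at 1.09 (limma adjusted p = 0.0335), and under the covariate of array medians, at 1.14 (limma adjusted p = 0.0289).

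On the OE2 arrays IAA18 had signals of 10.14, 9.63 and 9.44, each above every Col-0 array, with a difference of 0.64 ± 0.35 (limma adjusted p = 0.526). The lowest OE2 array exceeded the highest Col-0 array by little. On the OE1 arrays it had 9.66, 9.20 and 9.28, which overlapped Col-0 (difference 0.28 ± 0.35, limma adjusted p = 0.757). By mean, the order from high to low was fls1-3, OE2, OE1 and Col-0, the reverse of that for IAGLU, again with overlap at every step. The difference of fls1-3 minus OE1 was 0.96 ± 0.35 and missed the threshold (limma adjusted p = 0.216), except with array quality weights (0.96, limma adjusted p = 0.0164) or the array median as a covariate (1.26, limma adjusted p = 0.0380). For fls1-3 minus OE2 it was 0.60 ± 0.35 (limma adjusted p = 0.887).

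**Figure D3:**
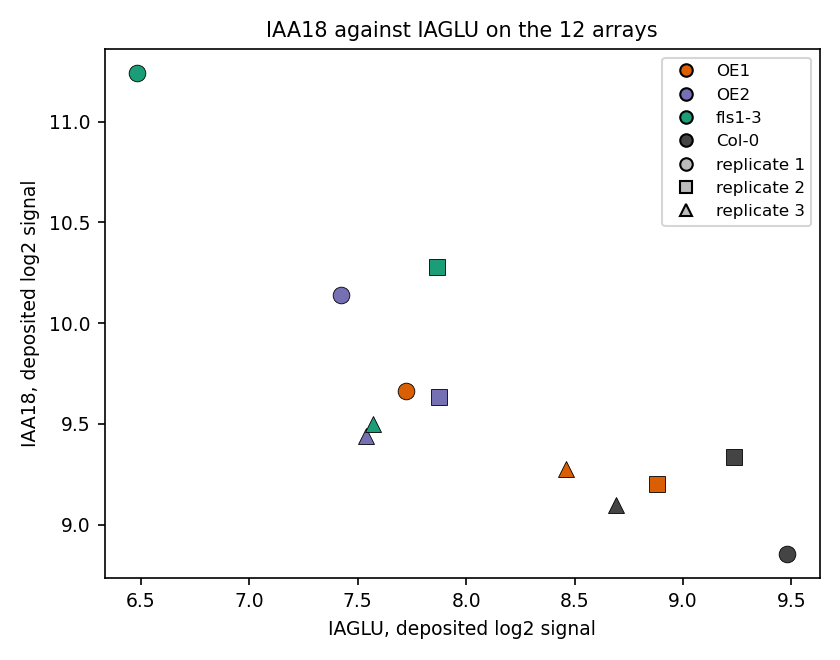
Log2 signal of IAA18 (vertical axis) against that of IAGLU (horizontal axis) on the 12 arrays, coloured by genotype, with marker shapes for replicate numbers. The arrays run from fls1-3 replicate 1, with IAGLU at 6.48 and IAA18 at 11.24, to Col-0 replicate 1, with IAGLU at 9.48 and IAA18 at 8.86.

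IAA18 and IAGLU ran in opposite directions over the arrays, with r = -0.83 over 12 arrays, the most negative raw value among the pairs of the 8 genes. It was -0.74 without fls1-3 replicate 1 and -0.64 without the arrays with the most extreme IAGLU signals, fls1-3 replicate 1 and Col-0 replicate 1. After the mean of each genotype was taken away it was -0.68, and IAA29 with IAA30 (-0.80) and IAGLU with IAA30 (-0.76) were then more negative. The points share arrays and array scaling, so these values describe the 12 arrays.

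IAA29, the shade and warmth response gene, was highest in OE2. Its log2 signal was 8.46, 8.78 and 8.36 on the OE2 arrays, against 6.88, 7.96 and 6.81 on the Col-0 arrays. Every OE2 array lay above every Col-0 array, with Col-0 replicate 2 closest. The mean was 8.54 ± 0.22 in OE2 and 7.21 ± 0.64 in Col-0 (SD, n = 3 each), a difference of 1.32 ± 0.44, or 2.50-fold, that missed the threshold (limma adjusted p = 0.234, 95% interval 0.37 to 2.27).

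Differences of IAA29 in the other lines were small beside their error. Its signals were 6.97, 7.88 and 7.77 in OE1 (difference from Col-0 0.33 ± 0.44, limma adjusted p = 0.779) and 6.88, 8.56 and 7.19 in fls1-3 (difference 0.33 ± 0.44, limma adjusted p = 0.899). Both lines overlapped Col-0, and without fls1-3 replicate 2 the sign of the fls1-3 difference turned, to -0.18. The OE2 arrays also lay above all OE1 arrays, with a difference of 0.99 ± 0.44 (limma adjusted p = 0.562). The difference of fls1-3 minus OE2 was -0.99 ± 0.44 (limma adjusted p = 0.887). The higher level in OE2 was thus not shown to differ from the levels in OE1 or fls1-3.

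Replicate arrays of these 3 genes scattered more than is usual at their level. The within-group SD was 0.52 for IAGLU and 0.61 for IAA29, where the median over probe sets with a mean between 7 and 9 was 0.297. It was 0.50 for IAA18, against a median of 0.253 for probe sets above 9. The scatter was not even across genotypes. In fls1-3 the SD was the largest for each gene, at 0.73 for IAGLU, 0.87 for IAA18 and 0.895 for IAA29. For IAA18 it was 0.25 in OE1 and 0.24 in Col-0, and in OE2 it was 0.23 for IAGLU and 0.22 for IAA29.

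**Figure D4:**
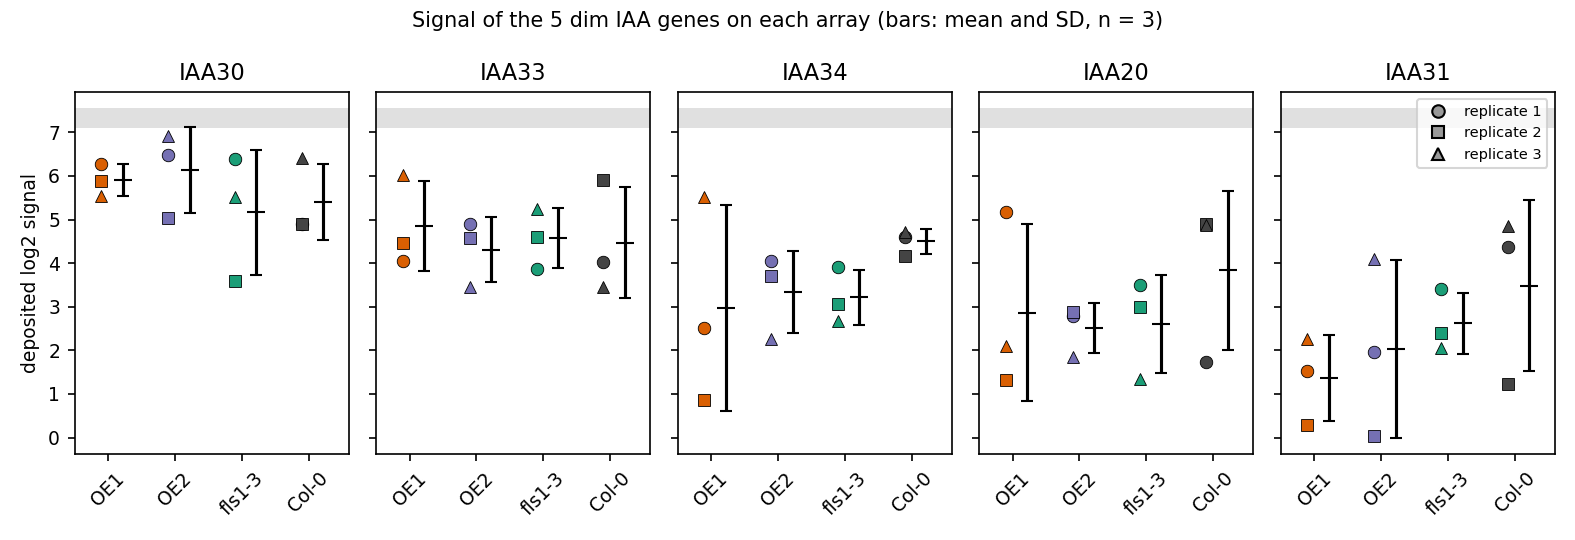
Deposited log2 signal (vertical axis) of IAA30, IAA33, IAA34, IAA20 and IAA31 on each array, by genotype (horizontal axis), with marker shapes for replicate numbers and the mean and SD beside the points (n = 3). All values lie below the grey band of array medians.

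The 5 genes of the group without the usual degron or with an altered one all had weak signals. IAA20, IAA30, IAA31, IAA33 and IAA34 lay below the array median on 12 of 12 arrays each, and their overall means, between 2.38 and 5.65, stood between the 7.6 and the 34.5 percentile of probe sets. The lowest single value among the 8 genes was that of IAA31 in OE2 replicate 2, 0.027, close to the floor of 0.

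IAA34 was the gene of weak signal with the steadiest Col-0 level. It had 2.52, 0.86 and 5.52 in OE1, 4.05, 3.70 and 2.27 in OE2, and 3.904, 3.07 and 2.67 in fls1-3, against 4.61, 4.18 and 4.72 in Col-0. All OE2 and all fls1-3 arrays lay below Col-0, while OE1 held both the lowest and the highest array. The differences were -1.53 ± 1.02 in OE1, -1.16 ± 1.02 in OE2 and -1.28 ± 1.02 in fls1-3, with limma adjusted p of 0.575, 0.717 and 0.779. The interval of each of these differences reached above 0. In OE1 it was -2.81 without OE1 replicate 3 and -0.48 without OE1 replicate 2, and in OE2 it was -0.63 without OE2 replicate 3. With a pseudocount of 64, the differences were -0.13, -0.21 and -0.23 in the 3 lines.

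IAA20 and IAA31 had their highest group mean in Col-0 and wide scatter. IAA20 had signals of 5.16, 1.33 and 2.11 in OE1, 2.80, 2.88 and 1.86 in OE2, and 3.49, 2.99 and 1.35 in fls1-3, against 1.73, 4.90 and 4.87 in Col-0. The single highest IAA20 array was an OE1 array, and every line overlapped Col-0. The differences were -0.97 in OE1, -1.32 in OE2 and -1.23 in fls1-3, each ± 1.14, with limma adjusted p of 0.746, 0.710 and 0.825. Leaving out 1 array moved them between -2.12 and -0.20 in OE1 (without OE1 replicate 1 and without OE1 replicate 2), between -2.38 and -0.79 in OE2 (leaving out the Col-0 array of replicate 1, then that of replicate 2), and between -2.28 and -0.60 in fls1-3 (without Col-0 replicate 1 and without fls1-3 replicate 3). With a pseudocount of 64 they were -0.13, -0.26 and -0.24.

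IAA31 had 1.54, 0.30 and 2.26 in OE1, 1.97, 0.027 and 4.09 in OE2, and 3.41, 2.39 and 2.06 in fls1-3, against 4.36, 1.23 and 4.86 in Col-0. The Col-0 arrays alone spanned most of the range of the gene. The 95% interval of the OE1 difference, -2.12 ± 1.18 (limma adjusted p = 0.513), ran from -4.68 to 0.44, so it holds both no difference and one larger than 4 log2 units. The differences in OE2 and fls1-3 were -1.46 and -0.86, with limma adjusted p of 0.688 and 0.904. Without Col-0 replicate 2 the 3 differences were -3.25, -2.59 and -1.99 in OE1, OE2 and fls1-3. The smallest with 1 array left out were -1.44 in OE1 and -0.18 in fls1-3, both without Col-0 replicate 3, and -0.46 in OE2, without OE2 replicate 2. With a pseudocount of 64 they were -0.27, -0.18 and -0.19.

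IAA30, a gene known as a target of regulators of the embryo, had 6.28, 5.89 and 5.54 in OE1, 6.47, 5.04 and 6.92 in OE2, and 6.38, 3.59 and 5.53 in fls1-3, against 4.899, 4.897 and 6.40 in Col-0. The array of fls1-3 replicate 2 was the lowest, and each line overlapped Col-0. IAA33 ranged from 3.46 in OE2 replicate 3 to 6.03 in OE1 replicate 3. The differences of both genes from Col-0 lay between -0.23 and 0.74, with standard errors of 0.73 for IAA30 and 0.78 for IAA33 and limma adjusted p between 0.750 and 0.989.

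**Figure D5:**
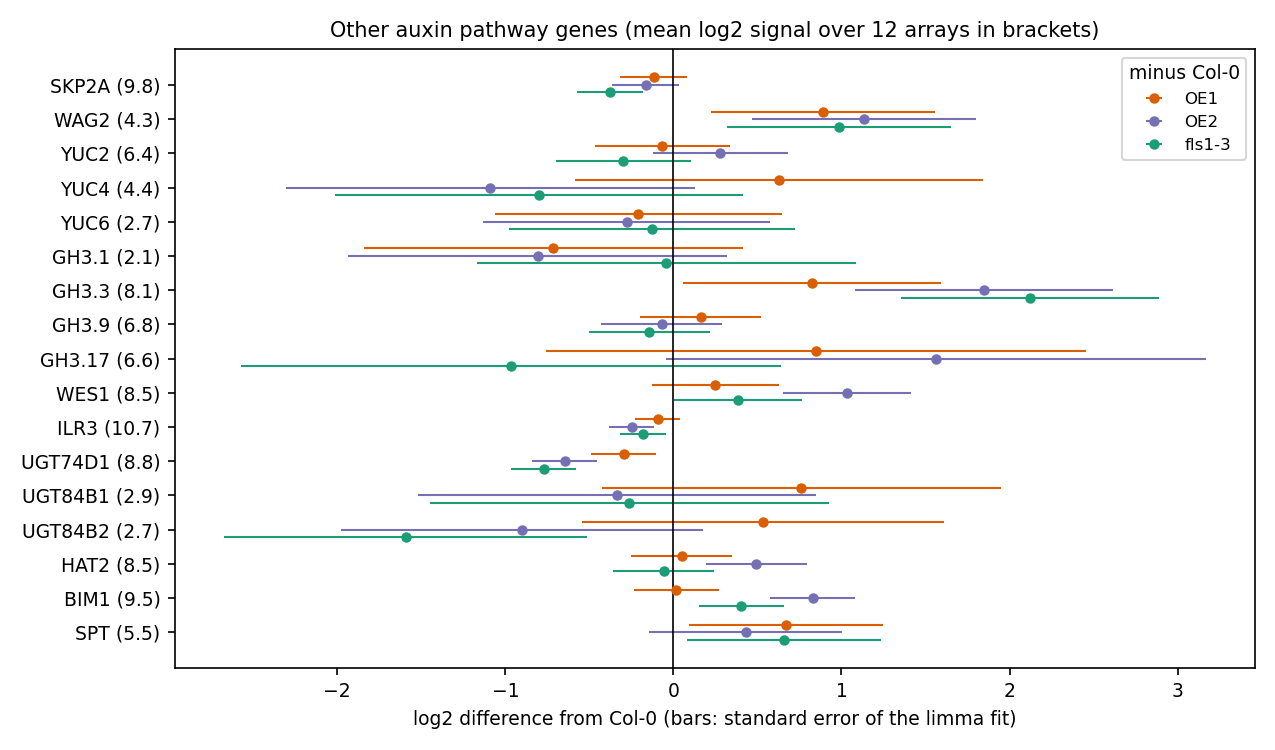
Log2 difference from Col-0 (horizontal axis) of 17 other auxin pathway genes (vertical axis) in OE1, OE2 and fls1-3, with standard errors of the limma fit, and each gene's mean log2 signal in brackets. GH3.3 lies at 1.85 in OE2 and 2.12 in fls1-3, UGT74D1 at -0.65 and -0.77, and none of the 17 passed the threshold.

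Other genes of the pathway were read from lists of 167 symbols for other Aux/IAA genes, receptors, response factors, transport, synthesis, conjugation and shade response. Of these, 17 have a probe set naming 1 gene, none of them a response factor or another Aux/IAA gene, and 10 of the 17 had a mean in the lower part of the array, below the middle of all probe sets. None passed in any line by limma: the lowest adjusted p was 0.572 for OE1, 0.183 for OE2 and 0.0949 for fls1-3. The median difference of these 17 genes was 0.16 for OE1, -0.069 for OE2 and -0.14 for fls1-3. Arrays that did not overlap Col-0 were found for 0 of the 17 in OE1, where 14.3% of all probe sets had them. In OE2 there were 3 higher and 2 lower, against 18.5%, and in fls1-3 there were 1 higher and 2 lower, against 12.6%.

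The conjugation list holds the nearest counterparts of IAGLU. UGT74D1, for another glucosyltransferase that acts on auxins, had 8.41, 8.81 and 8.46 in OE2 and 8.08, 8.63 and 8.59 in fls1-3, against 9.36, 9.29 and 8.96 in Col-0. Both lines lay below all Col-0 arrays, with differences of -0.65 ± 0.19 in OE2 (limma adjusted p = 0.183) and -0.77 ± 0.19 in fls1-3 (limma adjusted p = 0.0949), and one of -0.30 ± 0.19 in OE1 (limma adjusted p = 0.572). UGT84B1 and UGT84B2, the other glucosyltransferase genes measured from that list, were dim, with means of 2.92 and 2.71 over the 12 arrays.

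GH3 enzymes join auxin to amino acids, many of their genes are known auxin response genes, and 5 of them were measured. GH3.3 had 8.61, 8.61 and 9.07 in OE2 and 9.71, 8.86 and 8.54 in fls1-3, against 6.85, 5.58 and 8.32 in Col-0. Both lines lay above all Col-0 arrays, with differences of 1.85 ± 0.77 in OE2 (limma adjusted p = 0.384) and 2.12 ± 0.77 in fls1-3 (limma adjusted p = 0.309), neither past the threshold. In OE1 its arrays ran from 5.83 to 9.06 and overlapped Col-0 (difference 0.825 ± 0.77, limma adjusted p = 0.674). The scatter of GH3.3 was wide in OE1 and Col-0, with SDs of 1.70 and 1.37. WES1, the GH3.5 gene, had a difference of 1.03 ± 0.38 in OE2 (limma adjusted p = 0.301) and of 0.39 ± 0.38 in fls1-3 (limma adjusted p = 0.843). The other GH3 genes had differences of -0.81 (GH3.1), -0.069 (GH3.9) and 1.56 (GH3.17) in OE2 and of -0.043 (GH3.1), -0.14 (GH3.9) and -0.96 (GH3.17) in fls1-3, all overlapping Col-0 with limma adjusted p of at least 0.764. The GH3 genes thus did not share 1 direction. Of the shade and growth genes, 3 were measured. BIM1 had 0.83 ± 0.25 in OE2 (limma adjusted p = 0.187), with all OE2 arrays above Col-0. HAT2 had 0.49 ± 0.30 in OE2 (limma adjusted p = 0.577), overlapping Col-0. SPT had 0.67 in OE1, 0.43 in OE2 and 0.66 in fls1-3, each ± 0.58 and overlapping Col-0. In OE2 minus OE1, BIM1 had 0.81 ± 0.25 (limma adjusted p = 0.337) and HAT2 0.45 ± 0.30 (limma adjusted p = 0.747). All OE2 arrays lay above OE1 for both, where 18.4% of all probe sets did not overlap, and SPT overlapped, at -0.24 ± 0.58. BIM1 and HAT2 thus had their highest mean in OE2, without passing the threshold, and SPT had its highest in OE1. In fls1-3 minus OE2 each of these genes overlapped. YUC2, YUC4 and YUC6 of auxin synthesis had differences between -1.09 and 0.63 over the 3 lines.

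The genes most like IAGLU over the 12 arrays were AT1G05140 (r = 0.957), AT2G36835 (r = 0.955), AT5G62130 (r = 0.947), AT5G52780 (r = 0.945) and AT3G48200 (r = 0.943), among 5919 genes of at least the median signal. Of those 5919, 181 (3.06%) reached r = 0.8 with IAGLU. IAA29 had fewer close matches, with 11 of 5919 (0.186%) at that value, led by AT3G27770 (r = 0.895), AT5G24490 (r = 0.866), AT5G12050 (r = 0.846), AT3G60300 (r = 0.843) and AT3G61260 (r = 0.826). These correlations describe arrays that share scaling and genotype.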

How the data were processed

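The authors deposited 1 table of log2 signals, 1 column per array, made with MAS5 per the submitters' processing notes, version not given in the sources used here. The log2 scale and the scaling to a common trimmed mean were read from the values. Samples were grouped by their titles. After 64 control probe sets were left out, limma 3.58.1 in R 4.3.3 was fitted to the deposited log2 values of 22746 probe sets on 12 arrays, with 1 coefficient per group, 8 residual degrees of freedom, an intensity trend and no filter, and Benjamini-Hochberg adjustment at 0.05 within each comparison. All 6 pairs of genotypes and an overall F test were run, and the number of arrays limits the precision. Gene names come from the platform annotation, locus names from reference genes of TAIR10.1, and 13513 probe sets name 1 gene. Genes and lists were chosen with earlier results of these data known. Named with every array were IAGLU, IAA29, called genes, the 6 genes of lowest F p among those of at least median signal, and the 3 brightest and 3 dimmest IAA genes, and IAA33 was given by range. For IAGLU and IAA29 the 5 most alike genes by Pearson r are named, and of the pathway lists the genes in the conjugation, synthesis and shade groups named were chosen after their values were seen. Alternatives were other normalizations, a filter on the dimmest 40 percent of probe sets, pseudocounts of 16 or 64, other variance models, a replicate block and leaving out each array. The method was tested on simulated data. No sequences are printed.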

Additional observations from a re-analysis of the deposited data

How the results depend on the processing

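Of the differences of the 8 genes in the 6 comparisons under alternatives other than leaving out an array, 491 of 522 kept their direction and their side of the threshold, and 532 of 576 did when 1 array was left out. Part of this was fixed in advance. Leaving out an array of a genotype outside the comparison cannot change the difference. Neither can the filter, the intensity trend, the replicate block or fitting only the groups compared. Most differences also lay far from the threshold, so these counts say little about stability. The number of the 8 genes called in fls1-3 minus Col-0 was 1, and it was 0 under quantile normalization, with arrays centred on their medians, without the intensity trend, with only the groups compared and without the OE1 arrays (added after seeing the data), and 2 (IAA18 and IAGLU) under array quality weights or when the array median entered as a covariate (also added). With array quality weights it was 1 in OE2 minus Col-0 (IAGLU, main 0), 1 in fls1-3 minus OE1 (IAA18) and 2 in the F test, and with the covariate 2 in fls1-3 minus OE1 and 2 in the F test. Leaving out 1 array gave 0 to 1 in fls1-3 minus Col-0 and 0 to 1 in OE2 minus Col-0, and 0 elsewhere. The causes were not tested.

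With the array median as a covariate, differences turned to -0.11 for IAA18 and -0.079 for IAA30 in OE1 minus Col-0, 0.33 for IAA33 in OE2 minus Col-0, -0.18 for IAA29 and 0.72 for IAA20 in fls1-3 minus OE1, and -0.096 for IAA33 and 0.10 for IAA34 in fls1-3 minus OE2. With array quality weights they turned to -0.39 for IAA33 in fls1-3 minus Col-0, -0.81 for IAA34 and 0.029 for IAA20 in OE2 minus OE1, -1.05 for IAA34 and 0.39 for IAA20 in fls1-3 minus OE1, and 0.096 for IAGLU in fls1-3 minus OE2. A pseudocount of 16 turned IAA34 to -0.096 in OE2 minus OE1 and to -0.17 in fls1-3 minus OE1. With one of 64 these were -0.080 and -0.11, and IAA33 turned to -0.026 in fls1-3 minus Col-0 and IAA31 to -0.007 in fls1-3 minus OE2. Quantile normalization turned IAA34 to 0.012 in fls1-3 minus OE2. None of these values was called under any setting that turned them.

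Leaving out 1 array turned signs in ranges of -0.58 to 0.11 for IAGLU in fls1-3 minus OE2, -0.18 to 0.70 and -0.51 to 0.34 for IAA29 in fls1-3 minus Col-0 and minus OE1, and -0.84 to 0.56, -0.15 to 0.79 and -1.34 to 0.053 for IAA30 in fls1-3 minus Col-0, OE2 minus OE1 and fls1-3 minus OE1. For IAA33 the ranges were -0.20 to 1.11, -0.65 to 0.56 and -0.40 to 0.82 in OE1, OE2 and fls1-3 minus Col-0, -0.94 to 0.048 in OE2 minus OE1, -0.68 to 0.31 in fls1-3 minus OE1 and -0.17 to 0.61 in fls1-3 minus OE2. In OE2 minus OE1, fls1-3 minus OE1 and fls1-3 minus OE2 they were -0.68 to 1.65, -0.81 to 1.52 and -0.66 to 0.24 for IAA34, and -1.12 to 0.80, -1.03 to 0.89 and -0.34 to 0.73 for IAA20. For IAA31 they were -0.37 to 1.66 in OE2 minus OE1 and -0.41 to 1.63 in fls1-3 minus OE2.

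Counts over all probe sets moved more. With array quality weights they were 22, 671 and 1032 in OE1, OE2 and fls1-3 minus Col-0, against 0, 225 and 272, and with only the groups compared 1, 109 and 31. In the F test they were 2567 with the weights and 54 without the intensity trend, against 235. Over these alternatives the counts spanned 4 to 532 for OE2 minus OE1, 20 to 3783 for fls1-3 minus OE1 and 1 to 117 for fls1-3 minus OE2, against 6, 126 and 5. Leaving out 1 array gave 0 to 22, 66 to 303 and 103 to 369 in the 3 lines. Same-numbered arrays deviated together with r between -0.72 and 0.747, above 0.1 in 5 of 18 pairs. Not every pair passed 0.1, so the numbers were not taken to pair the arrays, although some arrays, such as OE1 and fls1-3 replicate 1, deviated together. IAGLU in fls1-3 minus Col-0 kept its call with the replicate block (-1.83, limma adjusted p = 0.0353). Below the array median, scatter limits what can be seen: the median within-group SD was 1.33 for means under 5.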

Other observations

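The replicate numbers of the titles, which pair no samples across genotypes by the labels, fell together for IAA29. Its highest array was replicate 2 in each of the 4 genotypes, at 7.88 in OE1, 8.78 in OE2, 8.56 in fls1-3 and 7.96 in Col-0. For IAGLU the lowest array was replicate 1 in OE1, OE2 and fls1-3, at 7.72, 7.42 and 6.48, while in Col-0 replicate 1 was the highest, at 9.48. IAA18 was highest on replicate 1 in the same 3 lines, at 9.66, 10.14 and 11.24, and lowest on it in Col-0, at 8.86. Other members shared numbers too. IAA30 was lowest on replicate 2 in OE2, fls1-3 and Col-0. IAA31 was highest on replicate 3 and lowest on replicate 2 in OE1, OE2 and Col-0. These orders were noticed in the data and were not tested, and their share among all probe sets was not counted.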
